A study of Mus musculus with 6 samples.

Results

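Signal transducers and activators of transcription (STATs) are transcription factors that lie in the cytoplasm until a cytokine or interferon receptor is engaged. Janus kinases bound to the receptor then phosphorylate them on a tyrosine, and the STATs pair through their SH2 domains, enter the nucleus and bind DNA. In macrophages, STAT2 acts for type I interferons as part of the interferon-stimulated gene factor with IRF9, STAT3 for IL-10 and the IL-6 family, STAT5A and STAT5B for GM-CSF, and STAT6 for IL-4 and IL-13. STAT4 is best known from T and NK cells, where it acts for IL-12.

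The 6 STAT genes *Stat2*, *Stat3*, *Stat4*, *Stat5a*, *Stat5b* and *Stat6* were taken by symbol from an RNA sequencing table that lists 15415 genes, and all 6 were among the 9030 genes tested. The table compared peritoneal exudate macrophages (PEMs) of mice with *Tim-4* deleted in macrophages (knockout, genotype LysM-Cre; *Tim-4* fl/fl, 3 libraries) with those of control mice (*Tim-4* fl/fl without Cre, 3 libraries). *Tim-4*, listed under its gene symbol *Timd4*, encodes a phosphatidylserine receptor of resident macrophages. Every library is labelled as treated with lipopolysaccharide (LPS), so there is no unstimulated group. Per the study's methods, the floxed mice were C57BL/6J, the animals were males aged 6 to 8 weeks, and PEMs were drawn out with starch. LysM-Cre acts in myeloid cells, neutrophils included, and control mice without Cre do not carry the Cre insertion in *Lyz2*. Nothing in the labels says that the 3 libraries of a group came from separate mice, so the p-values measure only the spread between these libraries, which may be technical. Values are FPKM (fragments per kilobase of transcript and per total of mapped fragments), which are per length and allow levels to be compared between genes.

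Groups were taken from the library titles, because the genotype entries of the labels name the groups the other way round. *Timd4* was 0.333, 0.394 and 0.246 FPKM in the libraries titled knockout and 19.5, 12.0 and 1.19 FPKM in those titled control. The groups did not overlap, but control library 3 stood closer to the knockouts than to the other controls, and the log2 fold change was -2.66 (SE 0.74, limma adjusted p = 0.0715, and 0.0436 once replicate numbers were blocked). *Timd4* met the filter of a mean of 1 FPKM in one group only through the controls, so a lower value was built in and no call is drawn from these tests. *Lyz2*, a macrophage lysozyme gene, was 41.4, 4656 and 106 FPKM in knockout libraries and 7090, 7171 and 8482 FPKM in control libraries. The 6 macrophage markers were all tested, 3 with a positive and 3 with a negative estimate. They summed to 2295 to 2470 FPKM in knockout and 1640 to 2181 FPKM in control libraries, most of it *Cd68* (1642 and 1091 FPKM on average). *Csf1r*, the receptor of macrophage colony-stimulating factor, averaged 105 and 168 FPKM (limma adjusted p = 0.0903), and the 1 call was *Fcgr1*, a high-affinity IgG receptor gene (47.9 and 5.83 FPKM, log2 fold change 2.82, adjusted p = 0.0015). Reads on listed genes ranged from 36170767 to 42217558 per library.

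The 6 genes lie on 3 chromosomes. In RefSeq (GRCm38.p6, a later build than the mm9 named in the labels), *Stat5b*, *Stat5a* and *Stat3* follow one another on chromosome 11 with 0 genes between neighbours, *Stat6* and *Stat2* are on chromosome 10 with 39 genes between them, and *Stat4* is on chromosome 1. RefSeq gave 9 start sites for the 6 genes. The 250 bases before each were searched on both strands for the interferon-stimulated response element (ISRE; TTTCNNTTTC, or GAAANNGAAA on the other strand), which the STAT2 complex binds, and for the gamma-activated site (GAS; TTCNNNGAA), which other STAT dimers bind. The ISRE letters were found before 2 of the 9 start sites, those of *Stat2* and of the second *Stat4* start, against 2.98% of all 32851 windows of that length. The GAS letters were found before 0 of the 9, against 7.02% of all windows. The 30 bases around both ISRE matches are shown because *Stat2* is the member that passed the test and *Stat4* the one that was lower on average. Capitals mark the match, which is a description of the letters and not a measured binding site.
Stat2 (chr10:128270266-128270295, plus strand, match starting 222 bases before the start): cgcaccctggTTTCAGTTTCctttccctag
Stat4 (chr1:52008133-52008162, plus strand, match starting 97 bases before the second start): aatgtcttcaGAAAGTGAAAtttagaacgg

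Of the 6 STAT genes, *Stat2* was higher in *Tim-4* knockout PEMs than in controls and the other 5 did not pass the test. This 1 call among 6 genes stands beside the whole comparison, in which 7.31% of tested genes passed, 2.57% higher and 4.74% lower in knockout. On average, 5 members were higher in knockout and 1, *Stat4*, was lower. The median log2 fold change of the 6 was 0.28, beside -0.11 for all tested genes. That median of all tested genes became 0.01 when the libraries were rescaled by the median of ratios. *Stat2* was also the only member whose libraries did not overlap between the groups, against 11.1% of tested genes that were separate and higher in knockout and 23.0% that were separate and lower. Since whole cell populations were sequenced, fewer cells of a type and less RNA per cell cannot be told apart.

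**Figure D1:**
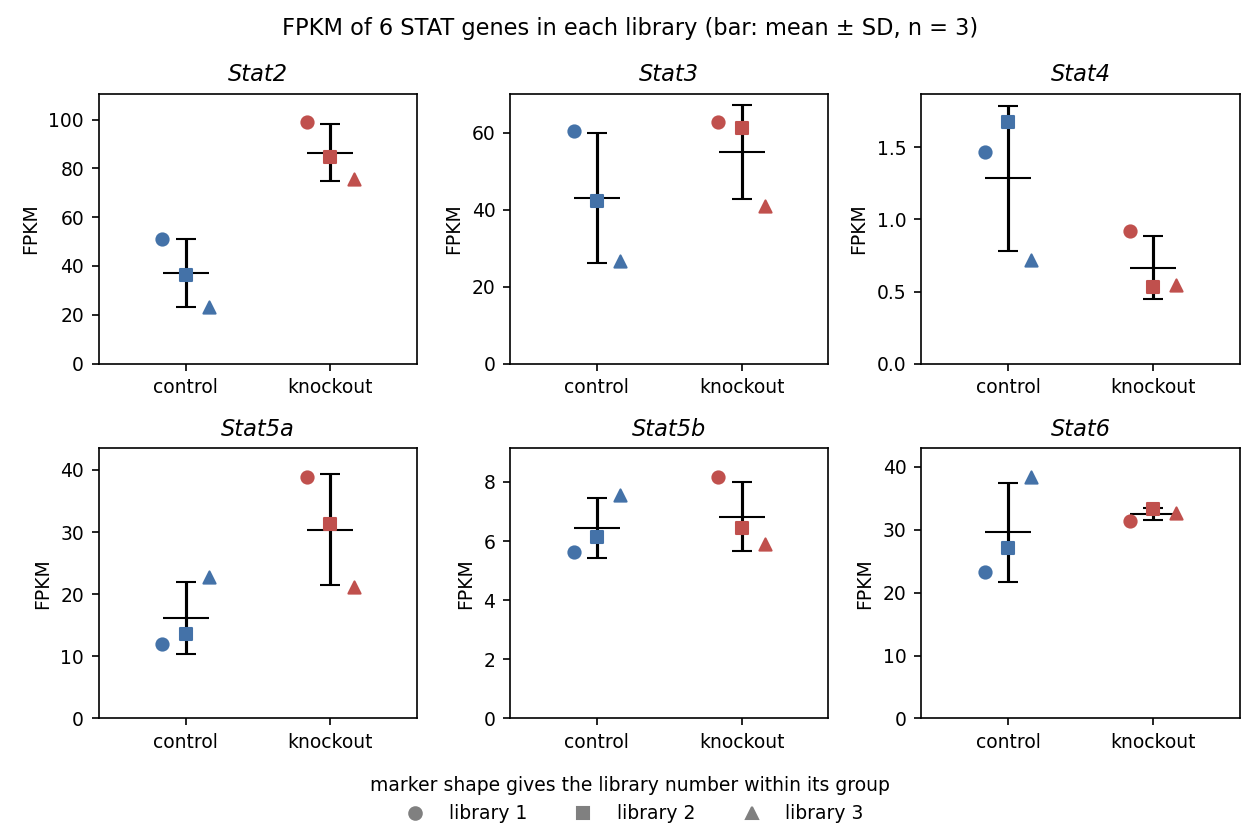
FPKM of the 6 STAT genes in each library of the control (blue) and knockout (red) groups. Each panel has its own linear axis from 0, the marker shape gives the library number, and bars give the mean ± SD (n = 3). The knockout libraries of *Stat2* lie between 75.6 and 98.8 FPKM, above the control libraries at 23.3 to 51.2 FPKM, while the groups overlap for the other 5 genes.

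*Stat2*, the interferon signalling member, was 98.8, 84.6 and 75.6 FPKM in knockout libraries 1, 2 and 3 and 51.2, 36.5 and 23.3 FPKM in control libraries 1, 2 and 3. All 3 knockout libraries were above all 3 controls. The means were 86.4 ± 11.7 and 37.0 ± 13.9 FPKM (SD, n = 3 each), a ratio of 2.33. The log2 fold change on the log2(FPKM + 1) scale was 1.26 (SE 0.27, 95% confidence interval 0.62 to 1.90, limma adjusted p = 0.0383). An exact permutation test of the means gave p = 0.1, the smallest that 3 against 3 libraries allow. The estimate was larger than that of 98.9% of tested genes. The call was lost without knockout library 1 (1.16, adjusted p = 0.154), knockout library 2 (1.27, adjusted p = 0.149), knockout library 3 (1.35, adjusted p = 0.0663) or control library 2 (1.29, adjusted p = 0.147), and *Stat2* stayed higher in each of these fits. It was also lost without the filter on low values (adjusted p = 0.0695), after rescaling by the median of ratios (adjusted p = 0.0521) and with voom on recovered reads (adjusted p = 0.0562).

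*Stat3*, which carries IL-10 and IL-6 family signals, was 62.7, 61.4 and 41.0 FPKM in knockout and 60.5, 42.2 and 26.6 FPKM in control libraries. The groups overlapped, since control libraries 1 and 2 were both above knockout library 3. The means were 55.0 ± 12.2 and 43.1 ± 17.0 FPKM (SD, n = 3 each), and the log2 fold change was 0.39 (SE 0.31, 95% confidence interval -0.33 to 1.11, limma adjusted p = 0.436). The estimate was 0.67 without control library 1 and 0.09 without control library 3.

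*Stat5a* and *Stat5b* encode close relatives that act for GM-CSF and for cytokines of the common gamma chain family. *Stat5a* was 38.8, 31.2 and 21.1 FPKM in knockout and 12.0, 13.6 and 22.8 FPKM in control libraries. Knockout libraries 1 and 2 were above all controls, but knockout library 3 was below control library 3. The means were 30.4 ± 8.89 and 16.2 ± 5.83 FPKM (SD, n = 3 each), a ratio of 1.88. The log2 fold change was 0.88 (SE 0.29, 95% confidence interval 0.20 to 1.57), and the gene missed the threshold over all tested genes (limma adjusted p = 0.109). Without control library 3 it passed (1.14, adjusted p = 0.0271). Once the libraries were rescaled by the median of ratios, the lowest knockout library (20.6 FPKM) was above all controls, and the adjusted p in limma was 0.0819.

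*Stat5b* was 8.16, 6.45 and 5.89 FPKM in knockout and 5.62, 6.15 and 7.57 FPKM in control libraries. The groups overlapped, knockout library 1 being the highest and control library 1 the lowest of the 6, with means of 6.83 ± 1.18 and 6.45 ± 1.01 FPKM (SD, n = 3 each). The log2 fold change was 0.07 (SE 0.16, 95% confidence interval -0.31 to 0.46, limma adjusted p = 0.808). Its sign turned without knockout library 1 (-0.05) and without control library 1 (-0.01). The STAT5 transcripts share sequence. In GENCODE M21 15.8% of the 50-base stretches of the *Stat5a* transcript (3888 bases) also occur in that of *Stat5b* (5213 bases), and 2459 aligned bases of the pair are 89.8% identical. None of the other 14 pairs of the 6 genes shares such a stretch. How reads that match both genes were counted is not given in the sources used here, so the split of reads between *Stat5a* and *Stat5b* is uncertain.

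*Stat6*, which carries IL-4 and IL-13 signals, was 31.5, 33.3 and 32.7 FPKM in knockout and 23.4, 27.0 and 38.4 FPKM in control libraries. The knockout libraries lay close together inside the range of the controls, with coefficients of variation of 2.90% and 26.4%. The means were 32.5 ± 0.944 and 29.6 ± 7.81 FPKM (SD, n = 3 each), and the log2 fold change was 0.16 (SE 0.19, 95% confidence interval -0.28 to 0.60, limma adjusted p = 0.609). Without control library 3 it was 0.36 and without control library 1 it was 0.01, neither past the threshold.

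*Stat4*, the IL-12 signalling member, was near the filter on low values at 0.920, 0.532 and 0.548 FPKM in knockout and 1.47, 1.67 and 0.715 FPKM in control libraries. It passed the filter of a mean of 1 FPKM in one group only through the controls. Control library 3 fell inside the knockout range, and the other control libraries were above it. These values rest on 124, 72 and 72 reads in knockout and 186, 209 and 83 reads in control libraries, while no library had fewer than 1764 reads on any other member. The means were 0.666 ± 0.219 and 1.29 ± 0.504 FPKM (SD, n = 3 each), and the log2 fold change was -0.44 (SE 0.20, 95% confidence interval -0.90 to 0.03, limma adjusted p = 0.201). Because of that filter a lower value in knockout was built in, and no call is drawn from it. Without control library 3 the estimate was -0.63 (adjusted p = 0.0358). With a pseudocount of 0.1 the estimate was -0.81 and with voom -0.76, neither past the threshold.

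Lymphocyte markers are given beside *Stat4*, which is best known from those cells. The T and NK cell markers summed to 0.195 to 0.473 FPKM in knockout and 0.339 to 1.83 FPKM in control libraries, and 0 of the 7 listed passed the filter on low values. *Cd3e*, which defines T cells, was listed at 0.0157, 0 and 0.0161 FPKM in knockout and 0.468, 0.169 and 0.0729 FPKM in control libraries. B cell markers summed to 2.78 to 5.52 FPKM in knockout and 27.5 to 115 FPKM in control libraries, mast cell markers to 1.89 to 2.27 and 38.2 to 49.3 FPKM, and neutrophil markers to 41.3 to 72.6 and 159 to 172 FPKM. Of these, 4 of 5 B cell, 5 of 5 mast cell and 1 of 3 neutrophil markers tested passed the filter only through the controls, so that they had to be lower and no calls are counted for them. Among markers that met the filter in both groups, *Cd79a* of B cells (2.33 against 35.5 FPKM on average, -3.29, limma adjusted p = 0.0117) and *S100a8* of neutrophils (54.4 against 161 FPKM, -1.58, adjusted p = 0.0113) were lower. The other neutrophil marker of this kind, *S100a9*, overlapped at 0.953, 0.949 and 1.21 FPKM in knockout and 0, 2.30 and 5.12 FPKM in control libraries (adjusted p = 0.667). Mesothelial and fibroblast markers summed to 5.05 to 22.1 FPKM in knockout and 0.225 to 6.29 FPKM in control libraries. The 4 tested averaged under 1 FPKM in control libraries and passed the filter only through the knockout. A higher value was thus built in, and no calls are counted for them. The markers *Ighm*, *Trac*, *Ncr1*, *Ly6g*, *Mpo* and *Elane* are not among the listed genes, so no level is known for them. Of the markers that are listed, none was at 0 in all 6 libraries. The part of these cell types in the STAT results was not tested.

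**Figure D2:**
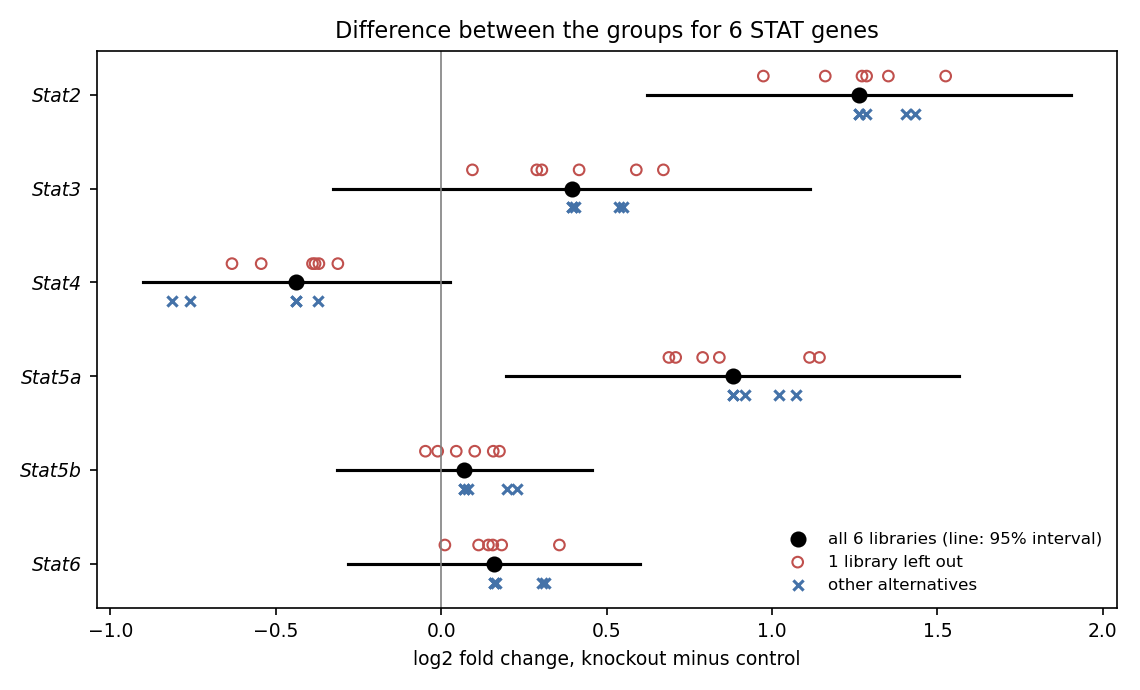
Log2 fold change (knockout minus control, on the log2(FPKM + 1) scale) of each STAT gene with its 95% confidence interval from limma. *Stat2* at 1.26 is the gene that passed an adjusted p of 0.05, and the interval of *Stat5a* (0.20 to 1.57) lies above 0 although its adjusted p was 0.109.

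The order of the levels can be read within a group, because FPKM is per length. In knockout libraries the order of the mean levels was *Stat2* (86.4 FPKM), *Stat3* (55.0 FPKM), *Stat6* (32.5 FPKM), *Stat5a* (30.4 FPKM), *Stat5b* (6.83 FPKM) and *Stat4* (0.666 FPKM). The libraries of *Stat6* and *Stat5a* overlapped and those of the other neighbours in this order did not. In control libraries *Stat3* (43.1 FPKM) came before *Stat2* (37.0 FPKM), followed by *Stat6* (29.6 FPKM), *Stat5a* (16.2 FPKM), *Stat5b* (6.45 FPKM) and *Stat4* (1.29 FPKM). There *Stat3*, *Stat2* and *Stat6* overlapped with one another, *Stat5a* fell below *Stat6* without overlap, and *Stat5b* and *Stat4* were each separate. Over all libraries, the mean level of *Stat2* was above that of 88.9% of tested genes, *Stat3* above 86.5%, *Stat6* above 80.4%, *Stat5a* above 75.3%, *Stat5b* above 46.8% and *Stat4* above 2.90%.

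*Stat2* and *Stat3* changed places between the groups. The ratio of *Stat2* to *Stat3* was 1.58, 1.38 and 1.85 in knockout and 0.846, 0.864 and 0.875 in control libraries, so *Stat2* exceeded *Stat3* in every knockout library and in no control library. This ratio barely varied among the controls although *Stat2* itself ranged from 23.3 to 51.2 FPKM in them. The ratio of *Stat5a* to *Stat5b* was 4.76, 4.84 and 3.58 in knockout and 2.14, 2.21 and 3.01 in control libraries, again without overlap. Both ratios were chosen after the values were seen and carry no test.

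Shares of the summed FPKM of the 6 genes do not depend on the scaling between libraries, and they were computed for every member with no filter on low values. The sum was 241, 217.5 and 177 FPKM in knockout and 154, 127 and 119 FPKM in control libraries. *Stat2* made up 41.0, 38.9 and 42.8% of it in knockout and 33.2, 28.7 and 19.5% in control libraries, a difference of 13.8 percentage points without overlap. The shares of *Stat5b* (3.23% against 4.94% on average) and *Stat4* (0.312% against 0.956%) were lower in every knockout library than in any control library. Each of these 3 differences had an exact permutation p of 0.1, the smallest possible, and an adjusted p of 0.2 over the 6 shares. The shares of *Stat3* (25.8% against 31.6%), *Stat6* (15.6% against 22.8%) and *Stat5a* (14.1% against 12.5%) overlapped, with exact permutation p values of 0.4, 0.3 and 0.7. The shares of 1 library sum to 100%, so a higher share of one gene goes with lower shares of others.

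**Figure D3:**
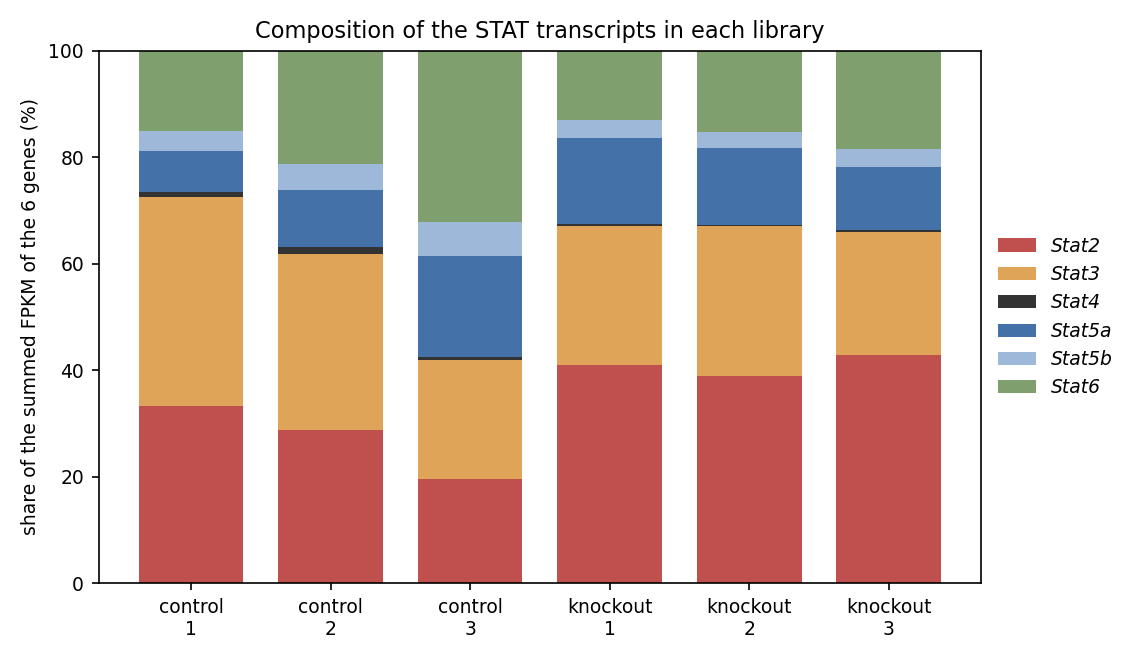
Share of each STAT gene in the summed FPKM of the 6 genes, in percent, for each library. *Stat2* takes 38.9 to 42.8% in the knockout libraries and 19.5 to 33.2% in the control libraries.

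Control library 3 stood apart from the other controls in opposite ways for different members. Relative to the mean of control libraries 1 and 2, its level was 0.532 for *Stat2*, 0.519 for *Stat3* and 0.455 for *Stat4*, and 1.78 for *Stat5a*, 1.52 for *Stat6* and 1.29 for *Stat5b*. It was thus the lowest control for the first 3 genes and the highest for the others. This library also had the lowest *Timd4* level of the controls. Without it, *Stat2* (0.97, limma adjusted p = 0.0203) and *Stat5a* (1.14, adjusted p = 0.0271) passed as higher in knockout, while 1278 of all tested genes passed in place of 660.

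**Figure D4:**
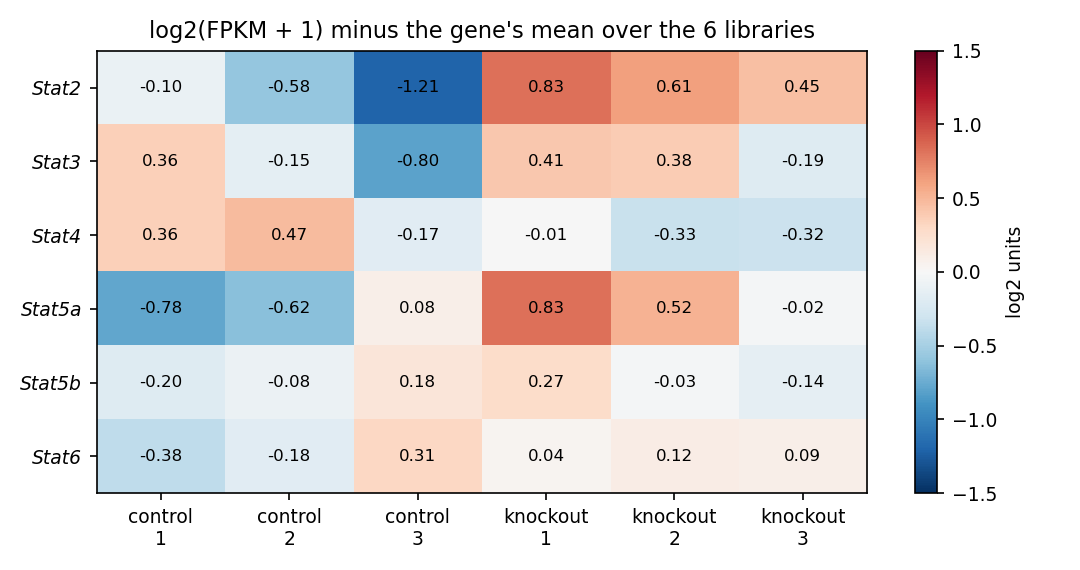
Level of each STAT gene in each library as log2(FPKM + 1) minus the gene's own mean over the 6 libraries. *Stat2* runs from -1.21 in control library 3 to 0.83 in knockout library 1, and *Stat5b* stays between -0.20 and 0.27.

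The profile of each member over the 6 libraries was set beside those of 5460 genes with a mean of at least 5 FPKM, as the root mean square (RMS) difference of centred log2(FPKM + 1) values. The genes most like *Stat2* were *Slfn8* (0.11), *Tor3a* (0.14) and *Daxx* (0.15), where the RMS deviation of *Stat2* from its own mean was 0.72. Those most like *Stat3* were *Sp100* (0.07), *Hdc* (0.11) and *Mlkl* (0.12), with 0.43 for *Stat3* itself. For *Stat5a* they were *Ralgds* (0.08), *Cdt1* (0.13) and *Bcl2l1* (0.15), with 0.57 for *Stat5a* itself. *Bcl2l1* encodes the survival protein BCL-xL. For *Stat4* they were *Psma5*, *Cldnd1* and *Clec7a* at differences of 0.08 to 0.09. *Stat5b* and *Stat6* varied little, so many genes lay near them, first *Fcf1*, *Anxa7* and *Nup205* for *Stat5b* and *Mtmr3*, *Pip4k2c* and *Niban2* for *Stat6*. Among the members themselves, *Stat5b* and *Stat6* were the closest pair (0.18) and *Stat2* and *Stat4* the farthest (0.87).

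The genes around the STATs were taken from 10 lists of ligands, receptors, kinases, partners, inhibitors and known targets, with 107 of 123 genes tested. Of these, 4 passed as higher and 7 as lower in knockout, beside 2.57% and 4.74% of all tested genes. Of the 107, 6 met the filter only through the controls, and 2 of these (*Il2ra* and *Alox15*) are among the 7, which leaves 5 lower calls. Among these 5, *Pim2* (mean 1.06 FPKM) and *Irf4* (mean 1.0001 FPKM) barely met the filter in the knockout. The estimate was positive for 71, with a median log2 fold change of 0.22. With the replicate number as a block, 28 of the 107 passed, 19 higher and 9 lower, beside 9.47% of all tested genes in that fit, 3.90% higher and 5.57% lower. Without knockout library 1 or control library 2, 0 of the 107 passed, and 1 passed without knockout library 2. Of all tested genes, 0.332%, 0.0886% and 0.698% passed in those 3 fits. With knockout library 3, control library 1 or control library 3 left out, 13, 21 and 25 of the 107 passed, beside 5.83%, 8.70% and 14.2% of all tested genes.

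**Figure D5:**
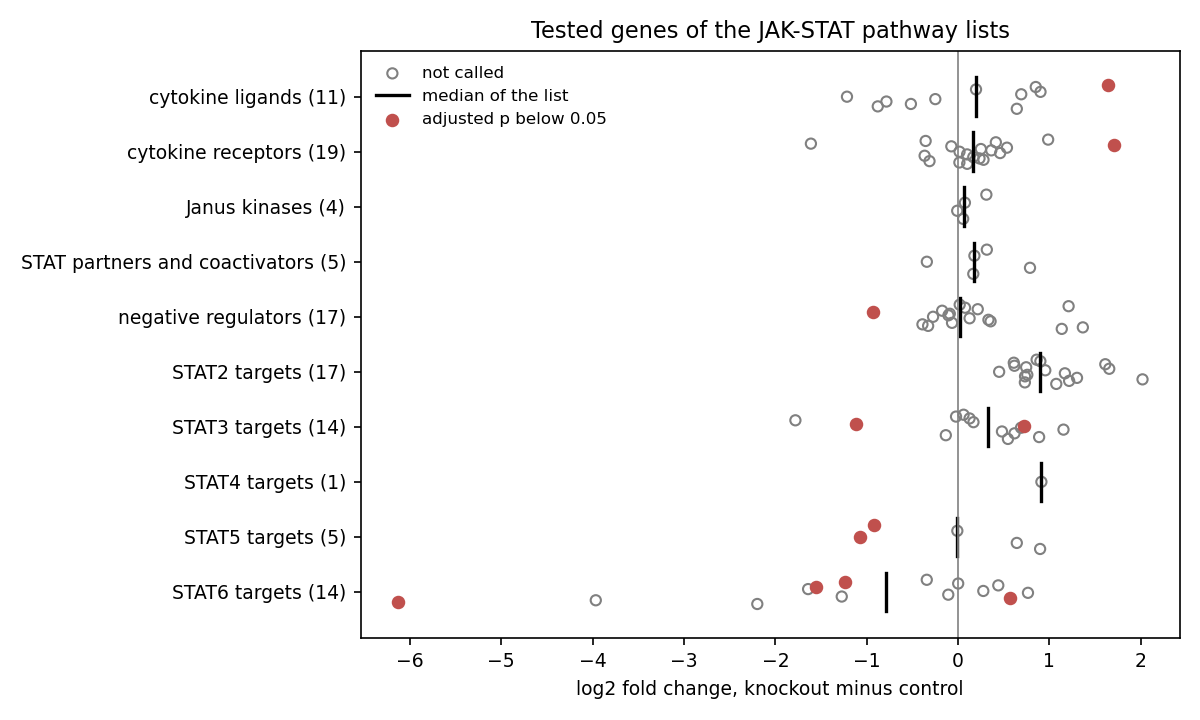
Log2 fold change (knockout minus control) of each tested gene in the 10 JAK-STAT lists, with the number tested in parentheses and a bar at the median of each list. Filled points passed an adjusted p of 0.05 in limma. All 17 tested STAT2 targets lie above 0 without passing, and the STAT6 targets reach down to -6.13 (*Retnla*).

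Of the cytokine ligands, 1 of 11 tested genes passed, *Il15*, which supports NK and memory T cells and is presented by its receptor chain. It was 51.5, 59.0 and 34.4 FPKM in knockout and 16.3, 17.0 and 10.8 FPKM in control libraries (log2 fold change 1.64, SE 0.25, limma adjusted p = 0.0153). Of the receptors, 1 of 19 passed, *Il15ra*, the chain that presents IL-15, at 27.5, 29.2 and 19.8 FPKM against 8.90, 6.50 and 5.996 FPKM (1.70, SE 0.20, adjusted p = 0.00963). In both genes the lowest knockout library was above the highest control library. With the block, *Il12b* and *Il27* also passed among the ligands and *Il13ra1* among the receptors.

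The 4 Janus kinases, which phosphorylate the STATs, gave 0 calls in limma, 0 with voom and 0 at an unadjusted p below 0.05, with a median log2 fold change of 0.07. *Jak1* had means of 64.1 and 61.7 FPKM (0.06, SE 0.11) and *Jak2* 72.9 and 74.1 FPKM (-0.01, SE 0.16) in knockout and control. Of 5 partners and coactivators, 0 passed in limma or with voom and 1 had an unadjusted p below 0.05. *Irf9*, the DNA-binding partner of STAT2, was 37.2, 35.6 and 33.97 FPKM in knockout and 32.1, 34.6 and 28.3 FPKM in control libraries, overlapping, with a log2 fold change of 0.17 (SE 0.13, limma adjusted p = 0.426). *Nmi*, an interferon-inducible STAT interactor, averaged 44.7 against 26.6 FPKM (adjusted p = 0.133, and 0.0445 with the block).

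Of 17 negative regulators, 1 passed. *Ptpn1*, the phosphatase PTP1B that acts on Janus kinases, was lower at 43.6, 35.3 and 41.1 FPKM in knockout against 82.6, 69.7 and 78.4 FPKM in control libraries (log2 fold change -0.93, SE 0.14, limma adjusted p = 0.0149). With the block, the feedback inhibitor gene *Socs3* (271 against 115 FPKM on average, adjusted p = 0.0219) and *Usp18*, which restrains interferon receptor signalling (263 against 127 FPKM, adjusted p = 0.0459), passed as higher.

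The targets of STAT2, interferon-stimulated antiviral genes, had positive estimates in 17 of 17 tested genes, at a median of 0.90 on the log2 scale. Among them 12 did not overlap between the groups, against 11.1% of all tested genes that were separate and higher. In limma 0 of the 17 passed, as with voom, while 12 had an unadjusted p below 0.05, all higher, and 7 passed as higher with the block. Of all tested genes, 27.6% had an unadjusted p below 0.05, 9.93% of all tested genes did so as higher, and 3.90% passed as higher with the block. Without control library 1, 7 passed and the median was 1.22, and without control library 3, 4 passed and the median was 0.58. *Rsad2*, which encodes viperin, was 2586, 3103 and 1751 FPKM in knockout and 1227, 1025 and 357 FPKM in control libraries (1.66, SE 0.46, adjusted p = 0.0724, and 0.021 with the block). *Isg15*, a ubiquitin-like modifier, averaged 958 against 600.4 FPKM (0.73, adjusted p = 0.14). Control library 3 was the lowest control for both genes, as for *Stat2*.

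Of 14 STAT3 targets, the kinase gene *Pim1* was higher (292.5 against 177 FPKM on average, log2 fold change 0.72, SE 0.13, limma adjusted p = 0.0243) and the growth regulator *Myc* lower (5.26 against 12.7 FPKM, -1.12, SE 0.18, adjusted p = 0.0196). With the block *Zfp36*, which encodes the mRNA decay factor tristetraprolin, was also higher (279 against 124 FPKM, adjusted p = 0.0208). Of 5 STAT4 targets 1 was tested, *Furin*, a protease gene (122 against 64.3 FPKM, 0.91, adjusted p = 0.0781, and 0.0332 with the block). *Ifng*, the classical STAT4 target of lymphocytes, was under the filter at 0.275, 0.235 and 0.162 FPKM in knockout and 0.796, 0.679 and 0.0685 FPKM in control libraries.

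Of 5 STAT5 targets, 2 had a positive and 3 a negative estimate, at a median log2 fold change of -0.008. Past the threshold as lower in limma was *Il2ra*, the IL-2 receptor alpha chain (0.885 against 2.96 FPKM, adjusted p = 0.0306). So was *Pim2*, a survival kinase gene (1.06 against 2.997 FPKM, limma adjusted p = 0.0425). *Il2ra* had passed the filter only through the controls, and *Pim2* met it narrowly in the knockout. After rescaling by the median of ratios, with voom or without the filter, 0 of the STAT5 targets passed. Of 14 STAT6 targets, markers of alternative activation, 3 met the filter only through the controls. Among the others *Retnla* and *Irf4* were lower and *Mrc1* was higher, and with the block *Chil3* (62.5 against 1743 FPKM on average, adjusted p = 0.0293) and *Ccl24* (2.52 against 11.2 FPKM, adjusted p = 0.0185) were also lower. *Retnla*, which encodes the secreted protein RELM alpha, was 8.71, 8.62 and 15.0 FPKM in knockout and 3428, 1507 and 98.5 FPKM in control libraries (-6.13, SE 1.16, adjusted p = 0.0283). *Irf4*, an IL-4-inducible transcription factor gene, was 1.62, 0.722 and 0.658 FPKM in knockout and 6.84, 5.11 and 2.96 FPKM in control libraries (-1.55, adjusted p = 0.0263), so that knockout library 1 alone carried its knockout mean past the filter. The lipoxygenase gene *Alox15* (0.201 against 1.88 FPKM on average) met the filter only through the controls, and no call is drawn from it. Without the filter *Retnla* (adjusted p = 0.0605) and *Irf4* (adjusted p = 0.0568) were not called, nor was *Irf4* with voom (adjusted p = 0.0518). *Mrc1*, the mannose receptor gene, was higher (66.5 against 44.4 FPKM, 0.57, SE 0.12, adjusted p = 0.0326). *Stat6* itself did not pass in the same libraries, as given above. Markers of peritoneal macrophage subsets are given beside this list. Those of large peritoneal macrophages, *Timd4* included, summed to 4.56 to 8.54 FPKM in knockout and 35.3 to 154 FPKM in control libraries, and 4 of the 5 tested passed the filter only through the controls. The exception, *Prg4*, averaged 3.09 against 71.4 FPKM (-3.97, SE 0.44, adjusted p = 0.00828). Those of small peritoneal macrophages, which share *Irf4* and *Mgl2* with the STAT6 targets, summed to 509 to 1351 and 920 to 2400 FPKM, with 1 call (*Irf4*) among 6 tested. All 6 estimates were negative, which the filter fixed for *Mgl2*. The part of these subsets in the STAT6 target values was not tested.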

How the data were processed

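RNA of 6 PEM libraries was sequenced by the authors, and the deposited table gives FPKM per gene and library. It also holds the authors' mean normalised counts per group (a signal divided by DESeq2 size factors), which served only to recover whole reads (100% of values whole within 0.001). Deposited fold change, log2 and p-value or q-value columns of the authors' own comparison were not used. The labels name mm9 as build. The aligner, counter and read length are not given in the sources used here.

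FPKM were tested as log2(FPKM + 1) with limma 3.58.1 (lmFit, eBayes with trend) under R 4.3.3, two-sided, for the 9030 genes that averaged at least 1 FPKM in one group, with Benjamini-Hochberg adjustment over these genes and a threshold of 0.05. Voom on recovered reads was an alternative. Exact permutation tests were two-sided and cannot give p below 0.1. The code was tested on simulated data. Deviations from the group means correlated at 0.109, 0.109 and 0.304 between same-numbered knockout and control libraries and at -0.332 to 0.291 between others, the highest for knockout library 2 with control library 1. With all 3 same-numbered values over 0.1 the numbers were treated as pairs in an alternative fit, although neither the labels nor the methods say what they share.

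The members, lists and tests were chosen with earlier results of these data known. Named genes were the members, up to 3 called genes per list and direction, the 2 most abundant of a list without a call, *Timd4*, *Lyz2*, and the 3 genes most like each member. Genes of the lists that passed only with the block, *Ifng* and the marker genes given by name were named after their values were seen. *Mx1* and *Mx2* were not analysed here.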

Additional observations from a re-analysis of the deposited data

How the results depend on the processing

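Alternatives were a pseudocount of 0.1, no filter on low values, the replicate block, rescaling by the median of ratios, voom on recovered reads, and leaving out each library. *Stat2* had a positive log2 fold change in all 11, at 0.97 to 1.52 with a library left out. It was past the threshold in 4 of them and not in 7, which include no filter (1.26), rescaling (1.40) and voom (1.43), so that 0 of the 6 STAT genes passed under these 3 settings. With the replicate block its adjusted p in limma was 0.0191, and the block changed no other call among the 6 STAT genes. With a library left out, 0 to 3 of the 6 passed (*Stat4*, which met the filter only through the controls, among the 3), and the log2 fold changes were 0.09 to 0.67 for *Stat3*, -0.63 to -0.31 for *Stat4*, 0.69 to 1.14 for *Stat5a*, -0.048 to 0.18 for *Stat5b* and 0.01 to 0.36 for *Stat6*. The differences in share were then 9.96 to 16.8 percentage points for *Stat2*, -10.4 to -1.95 for *Stat3*, -0.822 to -0.464 for *Stat4*, -0.775 to 4.88 for *Stat5a*, -2.36 to -1.01 for *Stat5b* and -11.1 to -2.59 for *Stat6*. The *Stat5a* difference turned without control library 1 (-0.775) and the *Stat5b* fold change without knockout library 1 (-0.048) or control library 1 (-0.01).

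Over all tested genes, 8 to 1278 passed with a library left out, 1 to 513 higher and 7 to 765 lower. The higher calls numbered 141 without the filter and 352 with the block. Rescaling gave 343 higher and 326 lower calls, against 232 and 428 as reported. In the lists, 0 to 25 genes passed with a library left out, 0 to 14 higher and 0 to 14 lower. The block gave 28 list calls, 19 of them higher, and the lower calls numbered 3 without the filter and 4 with voom. The cause was not tested. *Stat4* rests on 72 to 209 reads per library, with coefficients of variation of 32.9% in knockout and 39.2% in control, and *Stat3* on 4435 to 12132 reads, with 22.1% and 39.3%.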

Other observations

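*Ifnb1*, the interferon beta gene whose product acts through STAT2, was under the filter on low values and was chosen after its values were seen. It was 0.587, 0.831 and 1.14 FPKM in knockout and 0.197, 0.200 and 0.215 FPKM in control libraries. All 3 knockout libraries were above the controls. In the limma fit without the filter its log2 fold change was 0.61 (SE 0.11, adjusted p = 0.0464), and the other fits did not test it. Its part in the *Stat2* result was not tested.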
